A study of Homo sapiens and Canis lupus familiaris with 27 samples.

Results

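The 9 genes described here are FOXO1, FOXO3 and FOXO4, which encode forkhead transcription factors, and 6 genes known to respond to them or to act in the same circuit, CCNG2, IRS2, PIK3IP1, BCL6, SESN3 and TXNIP. They were taken by name from the gene count tables of the prostate carcinoma cell lines PC-3, LNCaP and CT1258, in all groups. The set was chosen by the values of CCNG2, which was lower after PDA-66 in all 3 cell lines. Its difference from the controls is therefore given as a description, without a test. Each of the 9 names was found in each table, among 23708 genes in the human tables and 16028 in the canine table. All 9 passed the filter on low counts in PC-3 and LNCaP. In CT1258, 7 passed and PIK3IP1 and SESN3 did not.

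FOXO proteins switch on genes that hold cells in quiescence, slow growth signalling and protect from oxidative stress. When growth factors activate phosphoinositide 3-kinase (PI3K), the kinase AKT phosphorylates FOXO proteins, which then leave the nucleus, and several FOXO target genes feed back on the pathway, either by relaying the insulin signal (IRS2) or by restraining PI3K (PIK3IP1) and the mTOR kinase (SESN3). CCNG2 encodes cyclin G2, an atypical cyclin that is abundant in resting cells and slows the cell cycle. TXNIP encodes an arrestin-like protein that binds thioredoxin and limits glucose uptake, and it is known as a target of the glucose-sensing factor MondoA and its partner MLX.

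PC-3 (from a bone metastasis) and LNCaP are human cell lines, and CT1258 is a canine prostate carcinoma cell line. Each was treated with the indolylmaleimide PDA-66 at 15 μM for 12 h or 24 h, or with 0.15% DMSO, the vehicle, for 24 h. There were 3 replicates in each group apart from PC-3 DMSO, of which replicates 2 and 3 were used, 26 samples in all. Both PDA-66 groups share 1 set of DMSO samples, so that the 12 h groups have no control of their own duration. Each cell line is a single line, and each was grown in a different medium. By the study's methods the replicates are independent biological ones, and p-values measure the spread between them within that line.

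The deposited values are reads counted per gene, and they are given here as counts per 1000000 reads counted (CPM), on library sizes scaled by TMM. Total counts were between 11923105 and 18091755 per sample in the human cell lines. The CT1258 controls had 19909616 to 20976950 counts and its PDA-66 samples 7203534 to 8325867, so that the controls were counted 2.639 times as deeply. Of 11 markers of prostate epithelium, all 11 had a mean of at least 1 CPM in the LNCaP controls and 6 in the PC-3 controls, where KLK2 had none. In CT1258, 7 of the 11 were listed, 2 reached 1 CPM in the controls, and TMPRSS2 had no read in any sample, so that its prostate origin rests on the label. Of 7 fibroblast markers, 4 were listed in CT1258 and summed to 345.5 to 411.3 CPM in the controls, most of it LUM (292.7 CPM) and COL1A2 (86.6 CPM). COL1A1 and COL3A1, also listed, had means of only 0.05 and 0.13 CPM there. One library stood apart, LNCaP PDA-66 12 h replicate 2, in which the summed level of 7 fibroblast markers was 128.3 CPM against 19.9 to 30.1 CPM in the other LNCaP samples. This was almost all COL1A1, a collagen gene, with 124.7 CPM in that library, and each of the other 6 markers had at most 26 counts in any LNCaP sample. The values of the 9 genes in LNCaP at 12 h are given without this library as well. In PC-3, the summed level of the epithelial markers was 1271 to 1390 CPM in the controls, 582.9 to 629.3 CPM after 12 h and 762.2 to 909.9 CPM after 24 h, and that of 4 endothelial markers, 2 of them at or above 1 CPM, was 144.6 to 175.8 CPM, 23.6 to 24.3 CPM and 46.6 to 51.8 CPM. The sums of 7 fibroblast and 6 immune markers were lower after PDA-66 in PC-3 as well, at most 25.2 and 80.2 CPM against at least 48.7 and 104.2 CPM in the controls. In the PC-3 controls the immune sum was nearly all CD68 (118.5 CPM). KDR (144.3 CPM) made up most of the endothelial sum and COL1A2 (44.1 CPM) most of the fibroblast sum. The part of these markers in the results was not tested. Fewer cells with a transcript and less of it per cell cannot be told apart in RNA of whole cultures.

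Of the 9 genes, the promoters of CCNG2 and TXNIP are shown, since CCNG2 was lower and TXNIP higher after PDA-66 and theirs were the only promoters of the set with one of the motifs searched. The sequences are the 250 bases before the transcription start in the RefSeq promoter table (GRCh38.p14, 15 windows for the 9 genes, all 9 matched), and each was found once in GRCh37, the assembly to which HG19 corresponds. Both windows end at the base before the first exon. Capitals mark the forkhead element GTAAACA, searched on both strands, or the E-box CACGTG, which reads the same on both strands, and these motifs do not overlap.
CCNG2, GRCh37 chr4:78078110-78078359, plus strand: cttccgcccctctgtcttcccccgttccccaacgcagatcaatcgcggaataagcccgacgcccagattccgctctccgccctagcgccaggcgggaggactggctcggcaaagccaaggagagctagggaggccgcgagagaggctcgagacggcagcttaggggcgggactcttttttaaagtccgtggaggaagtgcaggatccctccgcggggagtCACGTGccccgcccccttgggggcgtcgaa
TXNIP, GRCh37 chr1:145438240-145438489, plus strand: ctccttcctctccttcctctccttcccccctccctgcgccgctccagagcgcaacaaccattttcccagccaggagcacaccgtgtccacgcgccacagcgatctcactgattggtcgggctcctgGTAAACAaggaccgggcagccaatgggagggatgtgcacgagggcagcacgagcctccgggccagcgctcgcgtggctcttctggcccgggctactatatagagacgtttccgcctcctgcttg
The E-box of CCNG2 lies 30 to 25 bases before the start, and the forkhead element of TXNIP 124 to 118 bases before it. Over the 35116 windows of the table, 2.98% held GTAAACA and 6.34% held CACGTG on either strand. In the other windows of the set, neither string of letters occurs, which describes these 250 bases only. Only these exact letters were searched, and E-boxes that differ from them were not. The search therefore does not tell which of the promoters holds a site for MondoA and MLX.

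**Figure D1:**
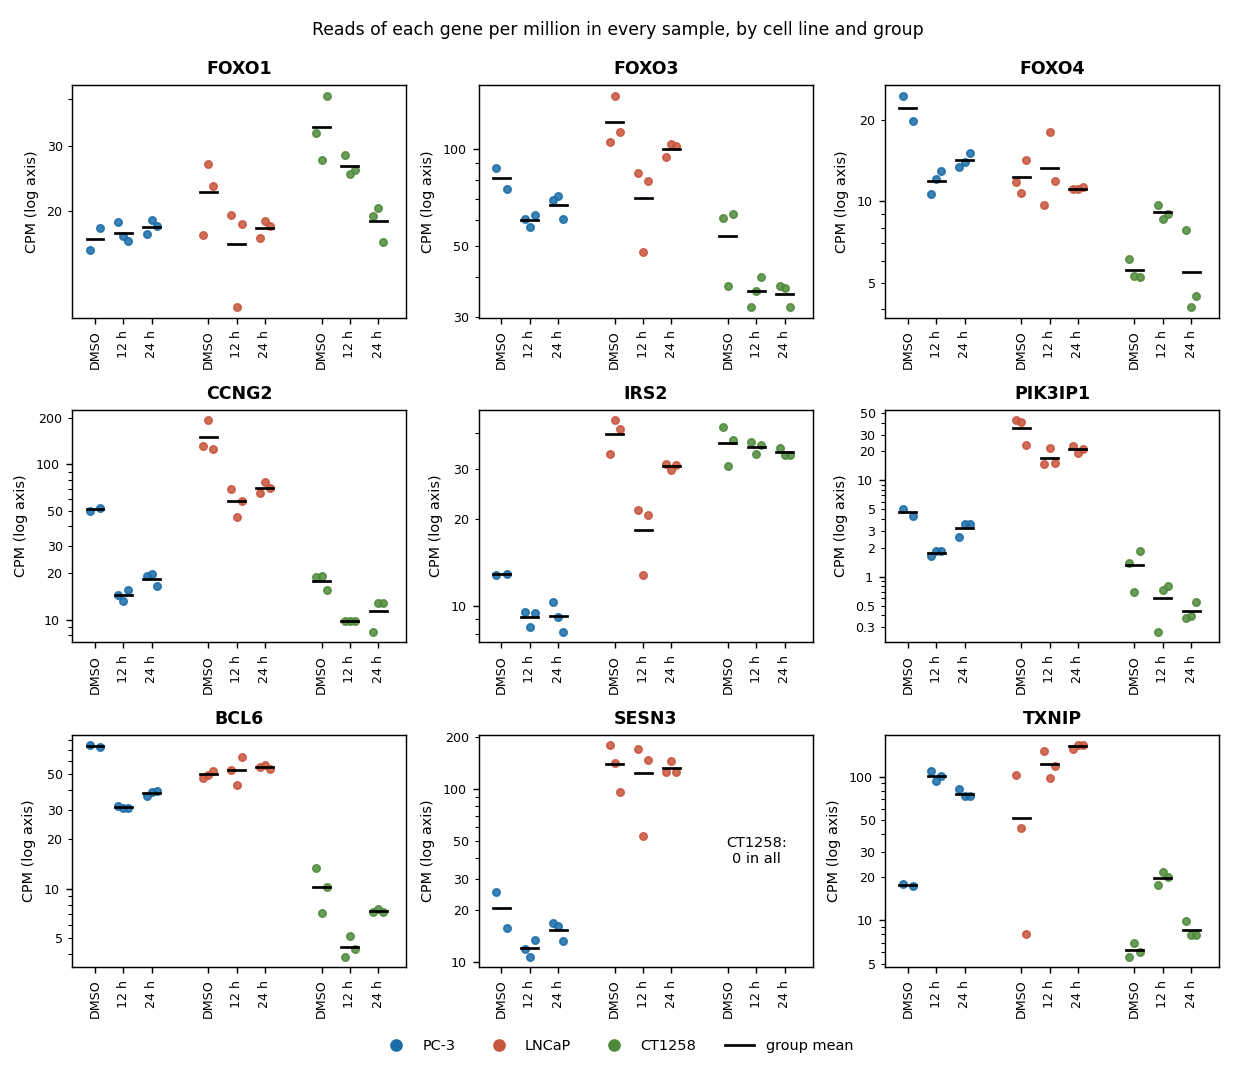
Level of each gene in every sample (CPM, log axis), by cell line and treatment group. Points are samples and black lines group means. CCNG2 lies lower in the PDA-66 samples of each cell line, TXNIP lies higher in PC-3 and CT1258, and the 3 LNCaP controls spread from 8.03 to 102 CPM for TXNIP.

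CCNG2 (chromosome 4, 78078360 to 78354542, plus strand, GRCh37) had 50.4 and 52.8 CPM in the PC-3 controls. After PDA-66 it had 14.5, 13.2 and 15.5 CPM at 12 h and 19.0, 19.6 and 16.6 CPM at 24 h. LNCaP started higher, with 131, 192 and 125 CPM in the controls, followed by 69.7, 45.9 and 57.8 CPM at 12 h and 65.2, 77.1 and 70.4 CPM at 24 h. In CT1258 the controls had 19.0, 19.2 and 15.5 CPM, against 9.86, 9.83 and 9.76 CPM at 12 h and 8.35, 12.7 and 12.9 CPM at 24 h. No PDA-66 sample reached the level of a control of its cell line. Fitted log2 fold changes at 12 h and 24 h were -1.84 and -1.49 for PC-3, -1.37 and -1.08 for LNCaP, and -0.86 and -0.66 for CT1258. These values chose the set, so that nothing is read from their direction. Without LNCaP DMSO replicate 2, the highest control, the LNCaP values were -1.15 and -0.85, without PDA-66 12 h replicate 2 the 12 h value was -1.22, and without CT1258 PDA-66 24 h replicate 1, the lowest sample, the CT1258 value at 24 h was -0.48.

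Against DMSO at an adjusted p under 0.001 in edgeR's quasi-likelihood test, the threshold of the study, 4 of the 8 other genes passed in PC-3 at 12 h, of which 1 rose and 3 fell. Of all 13777 genes tested there, 27.6% passed, 13.0% higher and 14.6% lower. The genes that passed were TXNIP (higher) and FOXO4, PIK3IP1 and BCL6 (lower). At 24 h in PC-3, TXNIP rose and BCL6 fell, beside a background of 19.3% (8.88% higher, 10.5% lower). In CT1258, where 6 of the 8 could be tested, TXNIP rose and BCL6 fell at 12 h (background 44.3%, of which 22.2% higher and 22.1% lower). FOXO1 fell there at 24 h (background 33.8%, 16.6% higher and 17.2% lower). The shares of the set in CT1258 were thus no higher than the backgrounds. In LNCaP none of the 8 passed at either time, where 0.00760% and 0% of 13156 genes did. The study's own edgeR analysis, at the same threshold, called many more genes in LNCaP at each time. The near absence of calls in LNCaP therefore holds for the test used here, and the reason for the difference was not tested. At an unadjusted p under 0.05, 3 of the 8 passed in LNCaP at 12 h and 2 at 24 h. The likelihood ratio test and the DESeq2 Wald test each called 1 at 12 h and 0 at 24 h, and limma voom called 4 and 1. At an adjusted p under 0.05, edgeR called 7 of 8 in PC-3 at 12 h (background 57.0%) and 6 of 8 at 24 h (49.9%), 2 of 8 in LNCaP at 12 h (9.14%) and 0 of 8 at 24 h (2.92%), and 5 of 6 and 3 of 6 in CT1258 (69.8% and 62.1%). The common coefficient of biological variation was 0.0972 for PC-3, 0.1001 for CT1258 and 0.240 for LNCaP.

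**Figure D2:**
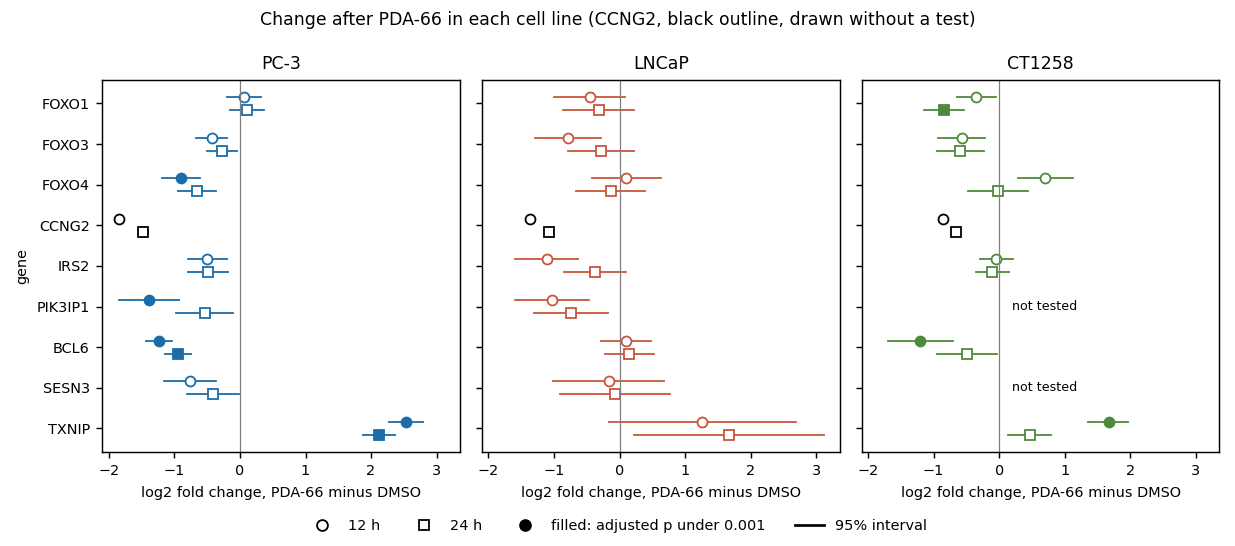
Fitted log2 fold change of each gene after PDA-66 relative to DMSO, with the 95% interval, at 12 h (circles) and 24 h (squares) in each cell line. Filled symbols passed an adjusted p under 0.001. TXNIP is the only gene of the set with a filled symbol on the right, in PC-3 and CT1258, and BCL6 is filled on the left in both.

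The 3 FOXO genes differed among themselves and between the cell lines. FOXO4 (chromosome X, 70315701 to 70323382) had 24.6 and 19.9 CPM in the PC-3 controls, 10.7, 12.1 and 12.97 CPM at 12 h and 13.5, 14.0 and 15.1 CPM at 24 h. All PDA-66 samples lay below both controls. It fell by 0.90 ± 0.14 (SE) on the log2 scale at 12 h (adjusted p = 9.1e-05), and at 24 h the change of -0.65 ± 0.13 missed the threshold (adjusted p = 0.00145), which it passed without DMSO replicate 3 (adjusted p = 0.000468). In CT1258 FOXO4 stood the other way at 12 h, with 9.73, 8.63 and 8.95 CPM against 6.15, 5.32 and 5.27 CPM in the controls, without overlap. This log2 difference of 0.70 ± 0.20 passed 0.05 but not 0.001 (adjusted p = 0.00553), and at 24 h the values of 7.86, 4.07 and 4.48 CPM overlapped the controls. In LNCaP the changes of FOXO4 were 0.10 and -0.14 with adjusted p-values of 0.787 and 0.809, and without PDA-66 12 h replicate 2 the first was -0.18.

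FOXO3 (chromosome 6, 108881038 to 109005977) was the most abundant of the 3 per exon length in the human controls. It had 87.0 and 75.1 CPM in the PC-3 controls, 60.5, 57.2 and 62.2 CPM at 12 h and 69.1, 71.5 and 60.3 CPM at 24 h. The log2 fold changes of -0.43 ± 0.11 and -0.28 ± 0.11 did not pass 0.001 (adjusted p = 0.0037 and 0.047). In CT1258 the controls had 60.7, 37.4 and 62.6 CPM, the 12 h samples 32.2, 36.2 and 39.8 CPM and the 24 h samples 37.3, 36.9 and 32.2 CPM. DMSO replicate 2 stood at the level of the PDA-66 samples, and without it the changes were -0.78 and -0.81 (adjusted p = 5.04e-08 and 5.15e-08) in place of -0.57 and -0.60 (adjusted p = 0.00753 and 0.00685). The LNCaP values were 105, 146 and 113 CPM in the controls, 84.3, 47.8 and 79.1 CPM at 12 h and 94.2, 103 and 102 CPM at 24 h. All PDA-66 samples of LNCaP lay below the controls, and the 12 h difference of -0.78 ± 0.23 did not pass (adjusted p = 0.0587). Without PDA-66 12 h replicate 2, the lowest sample, it was -0.57 and passed 0.05 but not 0.001 (adjusted p = 0.0132). The human tables also list FOXO3B, a near-identical copy, with 42 to 78 counts in PC-3 and 88 to 214 in LNCaP, so that reads of the 2 genes may be split and the level of FOXO3 is uncertain.

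FOXO1 (chromosome 13, 41129804 to 41240778, minus strand) had 15.7 and 17.97 CPM in the PC-3 controls and 16.6 to 18.9 CPM in the PDA-66 samples, and these overlapped. The log2 fold changes there were 0.06 (95% interval -0.20 to 0.32) at 12 h and 0.11 (-0.15 to 0.37) at 24 h. In CT1258, by contrast, FOXO1 had 32.4, 27.5 and 40.8 CPM in the controls, 28.2, 25.2 and 25.8 CPM at 12 h and 19.4, 20.3 and 16.6 CPM at 24 h. At 24 h all samples were below the controls and FOXO1 fell by 0.84 ± 0.14 on the log2 scale (adjusted p = 0.000191). This call was lost without PDA-66 24 h replicate 1 (-0.86, adjusted p = 0.00139) or replicate 3 (-0.76, adjusted p = 0.00208). The 12 h change of -0.35 ± 0.14 did not pass 0.001 (adjusted p = 0.0381), but did without DMSO replicate 2 (-0.48, adjusted p = 0.000361). In LNCaP FOXO1 had 17.3 to 26.7 CPM in the controls and 11.03 to 19.5 CPM after PDA-66, with adjusted p-values of 0.229 and 0.523, and without PDA-66 12 h replicate 2 the 12 h change was -0.24 (adjusted p = 0.312).

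BCL6 encodes a transcriptional repressor that FOXO proteins are known to induce, and it lies on chromosome 3 (187439165 to 187463513, minus strand). Its 74.7 and 72.3 CPM in the PC-3 controls stood against 32.0, 30.9 and 31.0 CPM at 12 h and 36.5, 38.9 and 39.5 CPM at 24 h. It fell by 1.23 ± 0.093 on the log2 scale at 12 h (adjusted p = 2.61e-07) and by 0.94 ± 0.093 at 24 h (adjusted p = 5.26e-06), with no overlap at either time. In CT1258, where BCL6 had 143 to 270 counts in the controls and 29 to 59 in the shallower PDA-66 samples, the levels were 13.4, 7.11 and 10.2 CPM, then 3.86, 5.16 and 4.28 CPM at 12 h and 7.24, 7.48 and 7.19 CPM at 24 h. The 12 h samples were below the controls, and the 24 h samples lay close to DMSO replicate 2 and below the other controls. BCL6 fell by 1.202 ± 0.23 on the log2 scale in CT1258 at 12 h (adjusted p = 0.000335), and this call was lost without PDA-66 12 h replicate 1 (-1.11, adjusted p = 0.00302), replicate 2 (-1.33, adjusted p = 0.00106) or replicate 3 (-1.17, adjusted p = 0.00277). At 24 h the change was -0.49 ± 0.21 (adjusted p = 0.0578), and it passed without DMSO replicate 2 (-0.70, adjusted p = 0.000403). LNCaP had 47.2, 49.4 and 52.3 CPM in its controls and 42.5 to 63.2 CPM after PDA-66, with log2 fold changes of 0.09 (95% interval -0.29 to 0.47) and 0.15 (-0.23 to 0.53). Its 24 h samples, from 53.7 to 56.9 CPM, were just above the controls, and the 12 h samples overlapped them. Without PDA-66 12 h replicate 2, the 12 h change was 0.23 (adjusted p = 0.134).

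PIK3IP1, which encodes a membrane protein that inhibits the catalytic subunit of PI3K, is encoded on chromosome 22 (31677580 to 31688520, minus strand). In PC-3 it was counted with 28 to 75 reads and had 5.06 and 4.23 CPM in the controls, 1.66, 1.83 and 1.84 CPM at 12 h and 2.61, 3.48 and 3.52 CPM at 24 h. It fell by 1.39 ± 0.21 on the log2 scale at 12 h (adjusted p = 0.000112), while the 24 h change of -0.54 ± 0.20 did not pass (adjusted p = 0.0376). With voom the 12 h value missed the threshold (adjusted p = 0.00142). In LNCaP the controls had 42.1, 40.5 and 23.2 CPM, the 12 h samples 14.7, 21.9 and 15.1 CPM and the 24 h samples 22.8, 19.1 and 21.5 CPM. All LNCaP PDA-66 samples were below the controls, DMSO replicate 3 being close to them. The log2 fold changes were -1.03 ± 0.26 (adjusted p = 0.0367) and -0.74 ± 0.25 (adjusted p = 0.143). Without PDA-66 12 h replicate 2, the first was -1.24 (adjusted p = 0.00373). In CT1258 PIK3IP1 had 28, 14 and 37 counts in the controls (1.39, 0.696 and 1.84 CPM), 2, 6 and 6 counts at 12 h (0.266, 0.720 and 0.802 CPM) and 3, 3 and 4 counts at 24 h (0.368, 0.393 and 0.543 CPM), below the filter. The 24 h values were below all controls, and the 12 h values overlapped DMSO replicate 2.

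IRS2 (chromosome 13, 110405042 to 110438930, minus strand) encodes an adaptor that carries the signal of the insulin receptor to PI3K. LNCaP controls had 33.6, 44.1 and 41.1 CPM, compared with 21.5, 12.8 and 20.7 CPM at 12 h and 31.2, 29.6 and 30.9 CPM at 24 h. The 12 h samples lay below every other LNCaP sample, and the log2 fold change of -1.11 ± 0.21 passed 0.05 but not 0.001 (adjusted p = 0.0163). Without replicate 2 of that group it was -0.90 (adjusted p = 0.00133), and without DMSO replicate 2 or 3 it passed neither threshold (adjusted p = 0.0642 and 0.0711). In PC-3 IRS2 had 12.8 and 12.9 CPM in the controls and 8.12 to 10.3 CPM in the 6 PDA-66 samples, all lower, with log2 fold changes of -0.50 ± 0.14 and -0.49 ± 0.14 (adjusted p = 0.00789 and 0.0109). CT1258 values overlapped, with 30.7 to 42.0 CPM in the controls and 33.5 to 37.2 CPM after PDA-66, and 95% intervals of -0.30 to 0.20 at 12 h and -0.36 to 0.14 at 24 h.

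SESN3 (chromosome 11, 94898677 to 94965705, minus strand) encodes a sestrin, which restrains mTOR signalling. In PC-3 it had 25.3 and 15.8 CPM in the controls, 12.0, 10.77 and 13.5 CPM at 12 h and 16.8, 16.1 and 13.3 CPM at 24 h. The 12 h change of -0.76 ± 0.18 missed the threshold (adjusted p = 0.00308) and passed it without DMSO replicate 3 (-1.05, adjusted p = 0.000116). At 24 h the change was -0.41 ± 0.18 (adjusted p = 0.0737). LNCaP had 179, 141 and 96.6 CPM in the controls, 170, 53.3 and 147 CPM at 12 h and 125, 146 and 126 CPM at 24 h, overlapping throughout. The low 12 h value is that of the library that stood apart, and the change of -0.17 at 12 h became 0.20 without it. In CT1258 SESN3 had no count in any of the 9 samples, where 3 counts in a library would correspond to 0.143 to 0.416 CPM, a limit that covers counting error only. Whether the canine gene model covers the exons in use was not checked, so that no count does not show that the transcript was absent. The other 2 sestrins of the wider list, SESN1 and SESN2, were both counted in CT1258, with mean control levels of 8.94 and 147.6 CPM.

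TXNIP was the only member called higher than DMSO at 0.001, in PC-3 at both times and in CT1258 at 12 h. It lies on chromosome 1 (145438490 to 145442635, plus strand). In PC-3 its 17.8 and 17.2 CPM in the controls compared with 109.5, 94.1 and 101 CPM at 12 h and 82.5, 73.0 and 73.7 CPM at 24 h. This was 5.79-fold (log2 fold change 2.53 ± 0.12, adjusted p = 3.31e-09) and 4.36-fold (2.12 ± 0.12, adjusted p = 4.5e-08). In CT1258 TXNIP had 5.61, 7.01 and 6.06 CPM in the controls, 17.6, 21.6 and 20.2 CPM at 12 h and 9.94, 7.87 and 7.87 CPM at 24 h. It rose 3.18-fold at 12 h (1.67 ± 0.14, adjusted p = 2.51e-07), whereas the 1.38-fold difference at 24 h did not pass 0.001 (adjusted p = 0.0192), although no sample overlapped. In LNCaP the controls differed widely among themselves, with 102, 43.7 and 8.03 CPM in replicates 1 to 3. The PDA-66 samples had 152, 98.3 and 119 CPM at 12 h, of which replicate 2 lay below DMSO replicate 1, and 157, 166 and 166 CPM at 24 h, above all controls. The log2 fold changes of 1.26 (95% interval -0.17 to 2.69, adjusted p = 0.212) and 1.67 (0.23 to 3.11, adjusted p = 0.186) did not pass. They were 2.26 and 2.66 without DMSO replicate 1 (adjusted p = 0.047 and 0.0427), and 0.75 and 1.16 without DMSO replicate 3 (adjusted p = 0.275 and 0.216). Without PDA-66 12 h replicate 2 the 12 h value was 1.40 (adjusted p = 0.111). With voom, which weights samples by their quality, they were 2.55 and 2.94 (adjusted p = 0.000174 and 4.01e-05).

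Between the PDA-66 groups, TXNIP in CT1258 was the one member past 0.001, where 2.13% of 9886 genes were called, 0.850% higher and 1.28% lower. It fell by 1.21 ± 0.15 on the log2 scale from 12 h to 24 h (adjusted p = 0.000184), which is 0.434-fold. With 1 sample fewer, the adjusted p rose to between 0.00116 and 0.00244 in 5 of the fits, those without any one of the 12 h replicates or without 24 h replicate 2 or 3. CCNG2, whose PDA-66 samples chose the set, is left out of these counts. In PC-3, 0 of the 8 other genes passed in edgeR (background 1.41%, 0.777% higher and 0.631% lower), and 3 had an unadjusted p under 0.05. The likelihood ratio test and DESeq2 also called 0, and voom 3. TXNIP was again lower at 24 h (-0.41 ± 0.091, adjusted p = 0.012), whereas PIK3IP1 (0.85 ± 0.20, adjusted p = 0.0183) and BCL6 (0.29 ± 0.086, adjusted p = 0.0494) were higher, and for these 3 genes the 12 h and 24 h samples did not overlap. These 3 are the genes of the 8 past 0.05 in PC-3 (background 10.1%), and in CT1258 TXNIP, FOXO1 and FOXO4 passed it, all lower at 24 h (background 19.3%). FOXO1 was lower by 0.49 ± 0.15 and FOXO4 by 0.72 ± 0.22 on the log2 scale, with differences of -0.49 and -0.72 (adjusted p = 0.0372 and 0.0344). CCNG2 differed between the PDA-66 groups by 0.36, 0.29 and 0.20 (PC-3, LNCaP and CT1258), given as a description. In LNCaP 0 of 8 passed (background 0%), with 1 at an unadjusted p under 0.05, 0 in the likelihood ratio test and DESeq2, and 1 in voom.

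Whether a gene responded differently in 2 cell lines was tested as an interaction in a fit of all samples over the 11736 genes shared by symbol, at an adjusted p under 0.05. CCNG2 was left out. Of the 8 other genes, 2 differed between PC-3 and LNCaP at 12 h (background 19.6%) and 1 at 24 h (9.70%). The log2 fold change of BCL6 was lower in PC-3 than in LNCaP, with a difference of -1.29 ± 0.24 at 12 h (adjusted p = 0.000538) and -1.07 ± 0.24 at 24 h (adjusted p = 0.0053). FOXO4 differed by -0.96 ± 0.29 at 12 h (adjusted p = 0.0215), which was lost without PC-3 DMSO replicate 2 (-0.83, adjusted p = 0.0847) or LNCaP DMSO replicate 2 (-0.89, adjusted p = 0.0529). The joint fit takes in PIK3IP1 through the human samples, although it had 2 to 37 counts in CT1258 and was below the filter there, and it is left out of the counts against CT1258. Between PC-3 and CT1258, 1 of 6 differed at 12 h (background 30.1%) and 1 at 24 h (21.2%). FOXO4 differed by -1.62 ± 0.30 at 12 h (adjusted p = 0.000242), being lower in PC-3 and higher in CT1258. FOXO1 differed by 0.94 ± 0.28 at 24 h (adjusted p = 0.0202), a call lost without PC-3 DMSO replicate 2 (0.82, adjusted p = 0.0901), CT1258 DMSO replicate 3 (0.78, adjusted p = 0.0623) or CT1258 PDA-66 24 h replicate 3 (0.86, adjusted p = 0.0566). Between LNCaP and CT1258, 2 of 6 differed at 12 h (background 40.2%), IRS2 by -1.11 ± 0.23 (adjusted p = 0.000679) and BCL6 by 1.25 ± 0.25 (adjusted p = 0.000531). At 24 h edgeR called 0 of 6 (background 21.1%), 1 at an unadjusted p under 0.05, and the likelihood ratio test also called 0. The share of members called was near the background in PC-3 against LNCaP and under it in the other comparisons. Without LNCaP PDA-66 12 h replicate 2, SESN3 also differed between PC-3 and LNCaP at 12 h (-0.95, adjusted p = 0.0167), beside BCL6 (-1.45, adjusted p = 3.17e-06) and FOXO4 (-0.71, adjusted p = 0.0282). Without it, FOXO4 also differed between LNCaP and CT1258 at 12 h (-0.93, adjusted p = 0.00382), beside IRS2 (-0.90, adjusted p = 0.0002) and BCL6 (1.39, adjusted p = 2.44e-05).

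**Figure D3:**
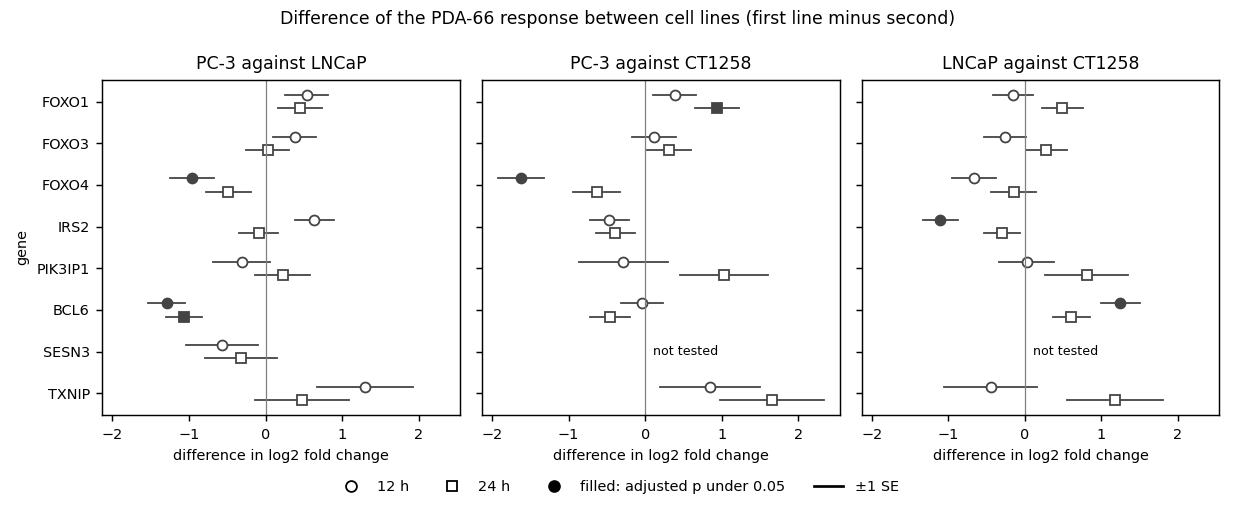
Difference between 2 cell lines in the log2 fold change after PDA-66 (first line minus second, ±1 SE) at 12 h (circles) and 24 h (squares). Filled symbols passed an adjusted p under 0.05. BCL6 and FOXO4 stand on the left in PC-3 against LNCaP, FOXO4 in PC-3 against CT1258, and TXNIP has the widest errors. PIK3IP1 in CT1258 rests on 2 to 37 counts per sample.

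For TXNIP the difference between PC-3 and CT1258 was 0.85 ± 0.65 at 12 h (adjusted p = 0.362) and 1.65 ± 0.67 at 24 h (adjusted p = 0.085). This fit shares 1 spread over the 3 cell lines, and the LNCaP controls are the samples in which TXNIP varied most. With only the 2 cell lines in the fit, which was tried after seeing the data, the differences were 0.81 (adjusted p = 0.000569) and 1.62 (adjusted p = 6.13e-07). Without LNCaP DMSO replicate 3, the difference between PC-3 and LNCaP at 12 h went from 1.30 (adjusted p = 0.145) to 1.80 (adjusted p = 0.000749).

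With vehicle alone PIK3IP1, SESN3 and IRS2 differed between the human cell lines, all higher in LNCaP. CCNG2, whose DMSO samples also chose the set, is given as a description. Over 14407 genes compared between the DMSO samples of PC-3 and LNCaP, 38.8% passed an adjusted p under 0.001, 20.6% higher in PC-3 and 18.2% higher in LNCaP. The share of the set that passed, CCNG2 left out, was near this background of 38.8%. The difference was 7.44-fold for PIK3IP1 (adjusted p = 1.39e-06), 6.64-fold for SESN3 (adjusted p = 1.59e-06) and 3.02-fold for IRS2 (adjusted p = 2.16e-05), none with overlapping samples. CCNG2 was 2.85-fold higher in LNCaP, also without overlap. FOXO4 (1.84-fold) and BCL6 (1.51-fold) stood higher in PC-3 without passing (adjusted p = 0.00368 and 0.00906). TXNIP overlapped (adjusted p = 0.0504), and it passed without LNCaP DMSO replicate 3 (adjusted p = 1.95e-05). Library preparation and counting were the same by the study's methods, but the 2 cell lines were grown in different media and deposited as separate tables. Differences in batch, medium and cell line cannot be told apart.

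Per kilobase of exon (all exons of the gene in GENCODE v44 on GRCh37), the order of the control levels differed between the cell lines. In PC-3 it was BCL6 (12.4 CPM per kilobase), FOXO3 (10.6), CCNG2 (6.95), FOXO4 (5.86), TXNIP (4.88), FOXO1 (2.82), SESN3 (1.94), IRS2 (1.58) and PIK3IP1 (1.22). In LNCaP it was CCNG2 (20.2 CPM per kilobase), FOXO3 (15.8), TXNIP (14.3), SESN3 (13.1), PIK3IP1 (9.26), BCL6 (8.36), IRS2 (4.86), FOXO1 (3.77) and FOXO4 (3.24). In PC-3 the ranges over samples overlapped between neighbours in this order for SESN3 and IRS2 only. In LNCaP they overlapped for every neighbouring pair except BCL6 and IRS2, and that of TXNIP spanned 2.23 to 28.4 CPM per kilobase. These lengths count exons of all transcripts and overstate the length of genes with many, such as CCNG2, and a lncRNA on the same strand covers 22.7% of the exon bases of FOXO1.

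Other known FOXO target genes were compared through a list of 49, of which 44 (PC-3), 38 (LNCaP) and 29 (CT1258) were tested. At 12 h 3 rose and 18 fell in PC-3, and 6 rose and 13 fell in CT1258, in all 47.7% and 65.5% of those tested (backgrounds 27.6% and 44.3%). Their median log2 fold change at 12 h was -0.37 for PC-3, -0.44 for LNCaP and -0.38 for CT1258, while that of all genes tested was between -0.01 and 0.03. In LNCaP edgeR called 0 of 38 at 0.001, the likelihood ratio test 8, DESeq2 9 and voom 16, and at 0.05 edgeR called 13 (34.2%), all lower, against 9.14% of all genes. Without PDA-66 12 h replicate 2, edgeR called 5 at 0.001. At 24 h 2 rose and 15 fell in PC-3 and 4 rose and 11 fell in CT1258, 38.6% and 51.7% (backgrounds 19.3% and 33.8%). In LNCaP 4 were called at 24 h without PDA-66 12 h replicate 2. FBXO32, an atrophy-related ubiquitin ligase, fell by 3.11 ± 0.13 on the log2 scale in PC-3 (adjusted p = 1.34e-09) and by 2.83 ± 0.41 in CT1258 (adjusted p = 2.94e-05) at 12 h. In CT1258 its level was low, with a mean of 2.80 CPM in the controls. The 24 h changes of FBXO32 were -1.93 ± 0.12 in PC-3 (adjusted p = 1.25e-07) and -0.73 ± 0.29 in CT1258, which did not pass 0.001 (adjusted p = 0.0423). HBP1, a repressor of cell cycle genes, fell at 12 h by 1.36 ± 0.11 (adjusted p = 3.98e-07) and by 1.67 ± 0.13 (adjusted p = 1.46e-07). The single-gene values that follow in this paragraph are also at 12 h. YPEL3, a growth suppressor, and BTG1, an antiproliferative factor, also fell in both, YPEL3 by 1.81 and 1.75 and BTG1 by 0.96 and 0.96. IL7R, the interleukin-7 receptor, went the other way, with 2.80 ± 0.11 in PC-3 (adjusted p = 9.86e-10) and 1.29 ± 0.26 in CT1258 (adjusted p = 0.000567). In LNCaP FBXO32 changed by -1.78 ± 0.19 (adjusted p = 0.0049) and HBP1 by -1.08 ± 0.24 (adjusted p = 0.0249), neither past 0.001.

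Among named members of the list, CDKN1B, which encodes the cyclin-dependent kinase inhibitor p27, fell by 0.73 ± 0.10 in PC-3 at 12 h (adjusted p = 6.16e-05), and in LNCaP its change of 0.23 ± 0.26 did not pass (adjusted p = 0.589). INSR, the insulin receptor, fell by 1.11 ± 0.11 in CT1258 at 12 h (adjusted p = 1.01e-06), and its changes of -0.40 in PC-3 and -0.41 in LNCaP did not pass (adjusted p = 0.00427 and 0.189). IRS1, the relative of IRS2, had log2 fold changes at 12 h of 0.45 for PC-3, -1.09 for LNCaP and -0.15 for CT1258, none past 0.001 (adjusted p = 0.0115, 0.0311 and 0.393). SESN2 fell at 12 h by 1.47 ± 0.13 in CT1258 (adjusted p = 3.79e-07), with -1.24 ± 0.27 in LNCaP (adjusted p = 0.024) and -0.28 ± 0.18 in PC-3 (adjusted p = 0.199). SESN1 had 0.30 (PC-3), -0.89 (LNCaP) and 0.39 (CT1258) on the same scale at 12 h, none past 0.001 (adjusted p = 0.135, 0.0406 and 0.0703).

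**Figure D4:**
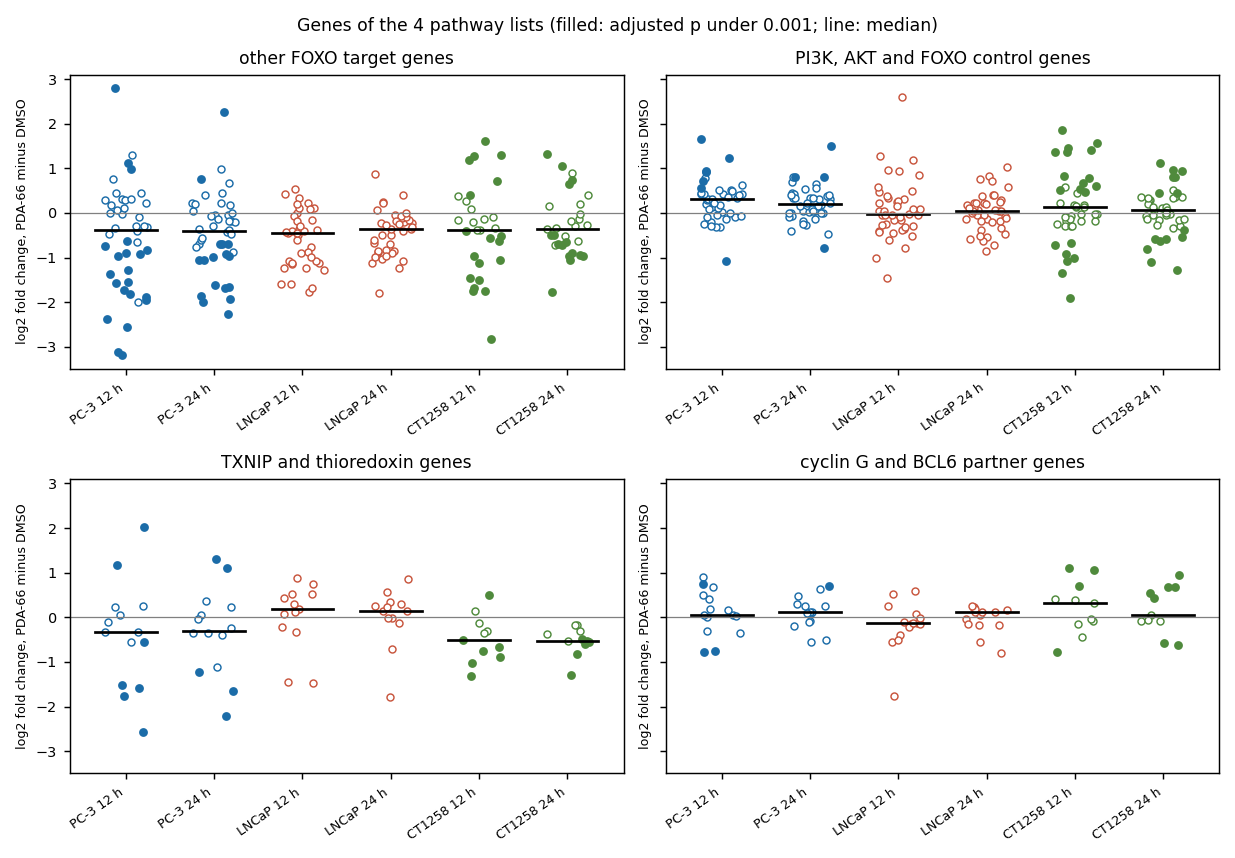
Log2 fold change after PDA-66 of the tested genes in the 4 pathway lists, by cell line and time. Points are genes, filled where the adjusted p was under 0.001, and black lines are medians. The medians of the other FOXO target genes lie between -0.44 and -0.35 in all 6 comparisons.

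Of 45 genes that encode PI3K, AKT and other regulators of FOXO, 42 were tested in PC-3, of which 6 rose and 1 fell at 12 h (16.7%, under the background of 27.6%) and 3 rose and 1 fell at 24 h (9.52%, under 19.3%). In CT1258 13 rose and 7 fell of 41 at 12 h (48.8%), and 7 rose and 8 fell at 24 h (36.6%), both near the backgrounds of 44.3% and 33.8%. In LNCaP edgeR called 0 of 42 at 0.001 at 12 h and 6 at 0.05, and the likelihood ratio test, DESeq2 and voom called 3, 4 and 7. Without PDA-66 12 h replicate 2, edgeR called 2 at 12 h and 1 at 24 h. The PC-3 count of 7 at 12 h was 12 without DMSO replicate 2 and 11 without DMSO replicate 3, and that of 4 at 24 h was 11 without DMSO replicate 2. The CT1258 count of 15 at 24 h was 8 without PDA-66 24 h replicate 2 and 6 without replicate 3. Single-gene values in the rest of this paragraph are at 12 h unless another time is given. SKP2, a ubiquitin ligase subunit known to target FOXO1 and p27, rose by 1.65 ± 0.16 in PC-3 (adjusted p = 1.89e-06) and 1.41 ± 0.11 in CT1258 (adjusted p = 1.4e-07). Its 1.19 ± 0.16 in LNCaP had an adjusted p of 0.00726. At 24 h SKP2 was still called higher in PC-3 (adjusted p = 7.9e-06), but its change of 0.345 in CT1258 did not pass 0.001 (adjusted p = 0.0185). XPO1, the exportin that carries FOXO out of the nucleus, rose by 0.71 ± 0.11 and 1.37 ± 0.105 in PC-3 and CT1258 (adjusted p = 0.000147 and 1.03e-07). AKT1 rose by 0.93 ± 0.10 in PC-3 (adjusted p = 6.99e-06) and fell by 1.003 ± 0.098 in CT1258 (adjusted p = 8.42e-07). AKT2 had a log2 fold change of 0.03 ± 0.13 in PC-3 that did not pass (adjusted p = 0.857). PIK3CA and PIK3R1, the catalytic and regulatory subunits of PI3K, did not pass in any cell line at 12 h, with PIK3R1 at 0.78 ± 0.17 in PC-3 (adjusted p = 0.00154) and -1.004 ± 0.25 in LNCaP (adjusted p = 0.0369) and PIK3CA at 0.34 ± 0.12 in PC-3 (adjusted p = 0.0323). FOXO6, the remaining FOXO gene, was tested in CT1258 only and changed there by -0.06 ± 0.34 (adjusted p = 0.89).

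Around TXNIP, a list of 14 genes held its regulators, its arrestin relatives and the thioredoxin system. At 12 h 2 rose and 5 fell in PC-3 and 1 rose and 6 fell of 11 in CT1258, 50% and 63.6% (backgrounds 27.6% and 44.3%). In LNCaP edgeR called 0 of 13, the likelihood ratio test and DESeq2 1 each and voom 3. The CT1258 count of 7 was 4 without any one of the 12 h replicates. ARRDC4, the closest relative of TXNIP, had 2.16 and 2.21 CPM in the PC-3 controls, 11.1, 7.25 and 8.41 CPM at 12 h and 6.34, 5.38 and 4.60 CPM at 24 h. It rose by 2.03 ± 0.24 at 12 h (adjusted p = 1.12e-05) and 1.32 ± 0.25 at 24 h (adjusted p = 0.000746). In LNCaP it changed by 0.74 ± 0.29 and 0.87 ± 0.29 (adjusted p = 0.131 and 0.137), and in CT1258, with 4 to 18 counts, it was not tested. Of 16 partners of cyclin G and BCL6, 1 rose and 2 fell of 15 in PC-3 at 12 h, which became 6 called without DMSO replicate 2, and 3 rose and 1 fell of 11 in CT1258. These shares of 20% and 36.4% were under the backgrounds of 27.6% and 44.3%. CCNG1, the relative of CCNG2, had 182.9 and 234.3 CPM in the PC-3 controls and 126, 126 and 114 CPM at 12 h, and fell by 0.77 ± 0.12 on the log2 scale (adjusted p = 0.000131). In CT1258 CCNG1 rose at 12 h by 1.10 ± 0.079 (adjusted p = 6.38e-08), from 84.4, 81.2 and 81.6 CPM to 181, 176 and 172 CPM. In LNCaP its 12 h change of -0.55 ± 0.13 did not pass 0.001 (adjusted p = 0.0338).

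The genes whose log2 CPM followed CCNG2 most closely over the samples of each cell line were YPEL5, BTF3, SRSF5, CLK1 and KLF9, with a lowest Pearson r over the 3 cell lines of 0.96, 0.93, 0.89, 0.88 and 0.87 (n = 8, 9 and 9 samples). For TXNIP they were HAT1, MCM6, E2F3, MCM4 and VRK1, each with a lowest r of 0.91 when rounded. These were ranked over 8265 genes and are a description, since samples of a group share their treatment. Within the set, BCL6 had an r with CCNG2 of 0.99 (PC-3), -0.155 (LNCaP) and 0.71 (CT1258), and TXNIP of -0.99, -0.57 and -0.78.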

How the data were processed

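RNA-seq of 26 samples was analysed. Poly(A)-selected libraries were sequenced as single reads by the authors, who mapped human reads to HG19 with STAR and canine reads to CanFam3.1 with BWA, whose version is not given in the sources used here. The authors deposited raw counts of reads per gene without normalization. The submitters' processing notes give STAR 2.3.1s and edgeR 3.14.0. The strand setting of the counting and the handling of reads that match several genes are not given there. Total counts ranged from 7203534 to 20976950 per sample, and intervals and floors cover counting error only. The study excluded PC-3 DMSO replicate 1 as an outlier. For 2 PC-3 PDA-66 12 h samples the labels leave the replicate number unclear, and they were used by group.

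The tests ran in edgeR 4.0.16 under R 4.3.3, with DESeq2 1.42.0 and limma 3.58.1 for the alternatives, and figures were drawn with Python 3.11.15 and matplotlib 3.10.9. A separate model was fitted per cell line over its 3 groups, after filterByExpr and TMM, and tested with edgeR's quasi-likelihood F test with Benjamini-Hochberg adjustment over all genes tested. The threshold was 0.001 and, for differences between cell lines in a joint fit, 0.05. The scripts were tested on simulated data. The 9 genes, the lists and the tests were chosen with earlier results of these data known, and a list is therefore a description. Beside the 9 genes, the text names a preset group of relatives and regulators and, from each list, up to 5 genes called in PC-3 and CT1258 in the same direction at 12 h with the largest changes. List members were written from general knowledge. Levels per kilobase and positions are from GENCODE v44 on GRCh37, and the canine genome was not used here. Correlations used log2 of CPM plus 0.5. As alternatives, normalization used DESeq2 size factors or plain library sizes, the filter was dropped or set to 1 CPM in 3 samples, and the test was edgeR's likelihood ratio test, limma voom with quality weights or the Wald test of DESeq2. Others fitted only the 2 groups of a comparison, moved the threshold to 0.05 (0.001 for differences between cell lines), thinned the CT1258 controls, added a replicate block or left out each sample in turn. A joint fit of only 2 cell lines was added after seeing the data.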

Additional observations from a re-analysis of the deposited data

Results flagged for a closer look

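The response to PDA-66 of a gene of the set differed between 2 cell lines, by the interaction test at an adjusted p under 0.05, in 7 cases. Of all genes, 19.6% and 9.70% were called in PC-3 against LNCaP (12 h and 24 h). In PC-3 against CT1258 30.1% and 21.2% were called, and in LNCaP against CT1258 40.2% at 12 h. The shares of the set were near or under these backgrounds. BCL6 differed by -1.29 between PC-3 and LNCaP at 12 h and by -1.07 at 24 h, and by 1.25 between LNCaP and CT1258 at 12 h. FOXO4 differed by -0.96 between PC-3 and LNCaP at 12 h and by -1.62 between PC-3 and CT1258 at 12 h. FOXO1 differed by 0.94 between PC-3 and CT1258 at 24 h, and IRS2 by -1.11 between LNCaP and CT1258 at 12 h. All are differences of log2 fold changes, first cell line minus second. All compare cells grown in different media. Those with CT1258 also compare 2 species, 2 genomes and 2 read mappers, and none of these can be told apart from the cell line. No group has the 4 samples needed to look for a single sample far from the rest. The FOXO4 call in PC-3 against LNCaP and the FOXO1 call were lost in some of the fits that left out a single sample.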

How the results depend on the processing

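At an adjusted p under 0.05 in place of 0.001, the number of genes called went from 4 to 7, 2 to 6 and 0 to 3 in PC-3 (12 h, 24 h and 24 h against 12 h), from 0 to 2 for LNCaP at 12 h, from 2 to 5, 1 to 3 and 1 to 3 for CT1258, and from 4 to 7 between the human controls. Counts between the human controls, here and below, include CCNG2, whose values chose the set. With voom the number called was 3 for PC-3 (24 h against 12 h, CCNG2 left out), LNCaP had 4, 1 and 1 calls, and CT1258 had 5, 3 and 3. The likelihood ratio test and DESeq2 each called 1 in LNCaP at 12 h. With only the 2 groups compared, 1 was called in CT1258 at 12 h and 0 at 24 h, BCL6 (adjusted p = 0.00168) and FOXO1 (adjusted p = 0.00122) being the calls lost. For differences between cell lines, a threshold of 0.001 left 1 (12 h) and 0 (24 h) in PC-3 against LNCaP and 0 in PC-3 against CT1258 at 24 h, the likelihood ratio test called 2 there, and the fit of only these 2 cell lines called 3 at 12 h and 3 at 24 h. Leaving out 1 sample gave 1 to 4, 0 to 4 and 0 to 1 in CT1258, 2 to 3 in PC-3 at 24 h, 1 to 3 in PC-3 against LNCaP at 12 h, 0 to 2 in PC-3 against CT1258 at 24 h, 0 to 1 in LNCaP against CT1258 at 24 h and 3 to 5 between the controls.

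The direction turned in uncalled values near 0. With voom in LNCaP, FOXO4 at 12 h was -0.14, SESN3 0.31 at 12 h, 0.10 at 24 h and -0.20 between the times, and FOXO1 and BCL6 -0.048 and -0.16 between the times. FOXO4 in CT1258 at 24 h was 0.13 with thinned controls. With 1 sample left out, the log2 values ranged from -0.031 to 0.17 for FOXO1 (PC-3, 12 h) and -0.084 to 0.088 for IRS2 (PC-3, between the times). In LNCaP at 12 h they ranged from -0.18 to 0.29 for FOXO4, -0.054 to 0.23 for BCL6 and -0.47 to 0.20 for SESN3, and at 24 h from -0.27 to 0.16 for SESN3. Between the times in LNCaP they ranged from -0.079 to 0.28 for FOXO1, -0.43 to 0.048 for FOXO4, -0.077 to 0.20 for BCL6 and -0.26 to 0.40 for SESN3. In CT1258 they ranged from -0.17 to 0.057 for IRS2 at 12 h, -0.39 to 0.16 for FOXO4 at 24 h and -0.10 to 0.050 for FOXO3 between the times.

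Correlations of same-numbered samples, taken after each group was centred on its mean, were between -0.42 and 0.19. Those of differently numbered samples were between -0.21 and 0.45. Centring groups of so few samples ties their values to each other, and PC-3 had only 4 same-numbered pairs. These correlations therefore do not show whether the numbers pair the samples. With the replicate block, edgeR called 2 genes in PC-3 at 24 h, 2, 1 and 1 in CT1258 and 0 in each LNCaP comparison, as without it. No block was fitted for PC-3 at 12 h, where 2 numbers are unclear. The causes were not tested.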
